A study of Mus musculus with 8 samples.

Results

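Neutrophils of Padi4 KO mice were compared with neutrophils of WT mice after stimulation with R848, over all genes of the count table. The comparison took 4 of the 8 libraries of the series, 2 of Padi4 KO and 2 of WT neutrophils, and 12254 of the 24421 genes in the table had enough reads to be tested. Padi4 KO mice lack exon 1 of Padi4 in every cell, so that the genotype is not restricted to neutrophils, and both genotypes were C57BL/6 females of 8 weeks. Bone marrow neutrophils were taken by magnetic isolation and exposed to R848, an agonist of TLR7, at 1 µg/ml for 6 h. The other 4 libraries, 2 of each genotype without R848, gave the unstimulated difference and a shared estimate of the spread. Their titles give 0 h and the methods of the study give the same culture time without stimulant, so the length of their culture is uncertain. If it was 0 h, R848 and 6 h of culture cannot be told apart in any change between the states. The labels do not state whether the 2 libraries of a group came from separate mice, so the p-values measure only the spread between these libraries, which may be technical.

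Padi4 encodes peptidylarginine deiminase 4 (PAD4), an enzyme that turns arginine residues of histones and other proteins into citrulline and is abundant in neutrophils. R848 enters endosomes and activates TLR7, which signals through MyD88, IRAK kinases, NF-kB and the MAP kinases. Immediate early genes such as Egr1 and Fos are transcribed within the first wave of such a response, cytokine and chemokine genes follow, and granule protein genes are mostly transcribed earlier, during neutrophil maturation in the bone marrow.

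The R848-stimulated libraries were shallow and unequal in depth. WT neutrophils had 610117 and 668857 reads on genes and Padi4 KO neutrophils had 1177972 and 1134163, 1.81-fold more on average. Levels below are CPM, counts brought to a common library total after scaling with the trimmed mean of M-values (TMM). The TMM factors were 0.803 and 0.845 in the WT and 0.956 and 0.960 in the Padi4 KO R848 libraries. Sums over a list are CPM of the library total without this scaling. They cover all members in the count table, tested or not. Without this scaling, 3 reads corresponded to 4.49 to 4.92 CPM in the WT and to 2.55 to 2.65 CPM in the Padi4 KO libraries. Intervals and floors given below cover counting error only. The targeted gene was low where the labels say KO: Padi4 (chr4:140745865-140774236, minus strand, GRCm38, GENCODE annotation) had 339 and 414 CPM in WT and 30.2 and 19.3 CPM in Padi4 KO neutrophils, 15.2-fold lower. Neutrophil genes were abundant in all 4 libraries, with 20715 to 30264 reads of S100a8 and 14011 to 19726 reads of Ngp. Erythroid transcripts moved with the genotype. A list of erythroid membrane and transcription factor genes had 36 members in the count table. After R848 they summed to 554 and 597 CPM of the library total in WT and to 3053 and 3080 CPM in Padi4 KO neutrophils. Of the defining erythroid markers, Hba-a1 and Hbb-bt had 0 reads in all 8 libraries, and Slc4a1 had 2 and 5 reads in WT and 535 and 544 in Padi4 KO.

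At a false discovery rate below 0.1, R848-stimulated Padi4 KO neutrophils had 961 genes at lower levels than the WT, 7.84% of the genes tested, and 1157 were higher, 9.44%. Changes of more than 2-fold were unevenly distributed: 151 genes (1.23%) were more than 2-fold lower and 858 (7%) more than 2-fold higher. Of the 858, 157 had no read in either WT library and 371 had 3 reads or fewer in the WT libraries together, while 5 of the 151 had no read in Padi4 KO neutrophils. Among the 6542 genes with a mean of at least 10 reads, 930 were lower and 832 higher, a larger share each way than over all genes tested. The shares over all genes tested, 7.84% and 9.44%, are the background for the counts of list members below. They are thus low for lists of well-read genes. Of the 6542 genes, 120 were more than 2-fold lower and 533 more than 2-fold higher, 11 were more than 4-fold lower and 149 more than 4-fold higher. Of those 149 genes, 30 belonged to the lists of erythroid and heme synthesis genes. The lower genes made up 45.4% of the 2118 calls, a share that moved to 18.2% with library size alone as the scaling, to 57.9% with relative log expression factors and to 65.7% with all libraries thinned to the depth of the smallest. The higher genes numbered 648 without WT replicate 1, 661 without WT replicate 2 and 741 without Padi4 KO replicate 1, those more than 2-fold higher 520 and 543 without WT replicate 1 or 2, and those more than 2-fold lower 254 without WT replicate 2.

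**Figure D1:**
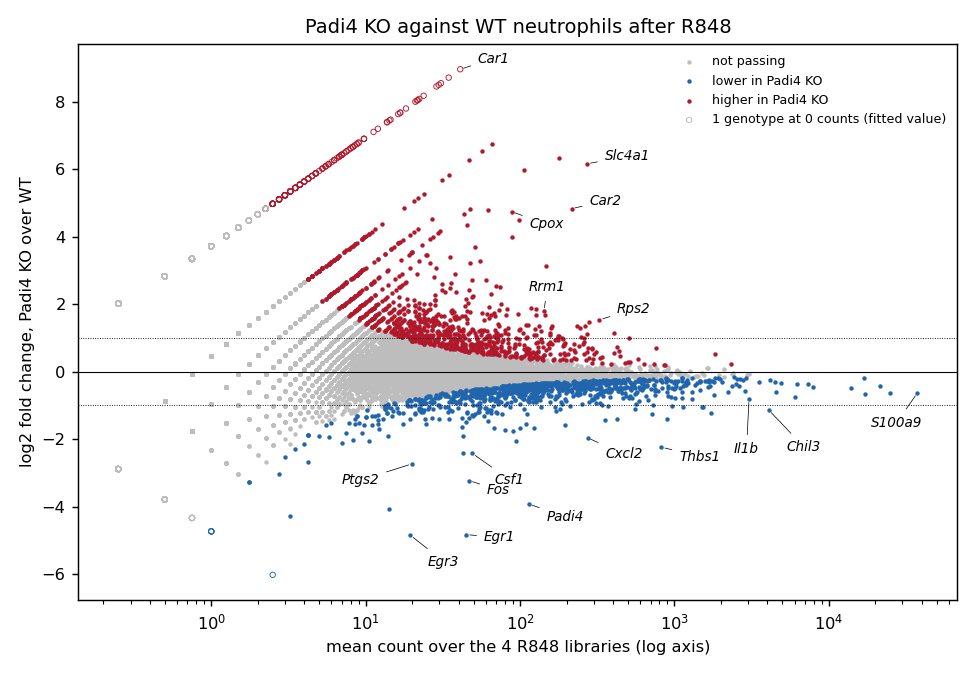
Each point is 1 of the 12254 genes tested, with the mean count over the 4 R848 libraries on a log axis and the log2 fold change of Padi4 KO over WT on the other, dotted lines at 2-fold and open circles for genes with no read in 1 genotype. The 961 lower genes hold the most abundant transcripts, S100a9 among them, and the 1157 higher genes reach the largest fold changes, with Slc4a1 at 6.17 and Car2 at 4.84.

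Immediate early and AP-1 genes had the lowest median fold change of the 10 lists of response genes in Padi4 KO neutrophils. Of the 29 members tested, 21 were lower and none higher, 9 of them by more than 2-fold, and the median log2 fold change was -0.74 against 0.082 over all genes tested. The count of lower members was 17 to 22 over the 14 alternative settings, and library size alone gave 1 higher member. Egr1, Egr2 and Egr3, zinc finger transcription factors, fell furthest among the members with reads in all 4 R848 libraries. Egr1 had 176 and 143 CPM in WT and 6.22 and 4.59 CPM in Padi4 KO neutrophils, a log2 fold change of -4.83 ± 0.29 (SE; adjusted p = 4.43e-60). Egr3 (chr14:70077203-70082614, plus strand) had 39 and 34 reads in WT and 3 and 2 in Padi4 KO (-4.85 ± 0.45). Egr2 (chr10:67535475-67542188, plus strand) had 29 and 22 reads in WT and 4 and 2 in Padi4 KO (-4.09 ± 0.49). Every Padi4 KO library was far below every WT library for these 3 genes, and Egr2 and Egr3 had no read in the 4 unstimulated libraries.

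Several AP-1 subunits and orphan nuclear receptors were lower too. Fos (chr12:85473890-85477273, plus strand) had 149 and 142 CPM in WT and 15.99 and 14.7 CPM in Padi4 KO neutrophils after R848 (-3.23 ± 0.23), against 772 and 812 CPM in unstimulated WT and 1504 and 1412 CPM in unstimulated Padi4 KO neutrophils. Its genotype difference thus had opposite signs in the 2 states, higher in Padi4 KO without stimulation and lower after R848. Jun, the partner of Fos, showed the same pattern, with 108 and 99.1 CPM in WT and 42.6 and 44.1 CPM in Padi4 KO after R848 (-1.25 ± 0.21) and an unstimulated log2 fold change of 1.28. Junb was lower by less (-0.52 ± 0.10). Nr4a1, an orphan nuclear receptor induced by inflammatory signals, had 718 and 802 CPM in WT and 292 and 266 CPM in Padi4 KO neutrophils (-1.45 ± 0.10). Its relative Nr4a3 had 6 and 4 reads in WT and 0 in both Padi4 KO libraries, and Fosb had 1 and 3 reads in WT and 0 in both Padi4 KO libraries. Fosl1 had 7 and 5 reads in WT and 1 and 0 in Padi4 KO. The receptor gene Nr4a2, with 0 and 0 reads in WT and 0 and 2 in Padi4 KO, did not pass, and neither did Jund (-0.30 ± 0.12), Mafk (-0.04 ± 0.22) or the phosphatase gene Dusp2 (-0.04 ± 0.23). Other members of the list were lower by less than 2-fold, among them Btg2, an antiproliferative gene, at -0.77 ± 0.09, the phosphatase gene Dusp1 at -0.76 ± 0.14, Ier2 at -0.74 ± 0.13, and Zfp36, which encodes an mRNA-destabilising protein, at -0.49 ± 0.08.

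**Figure D2:**
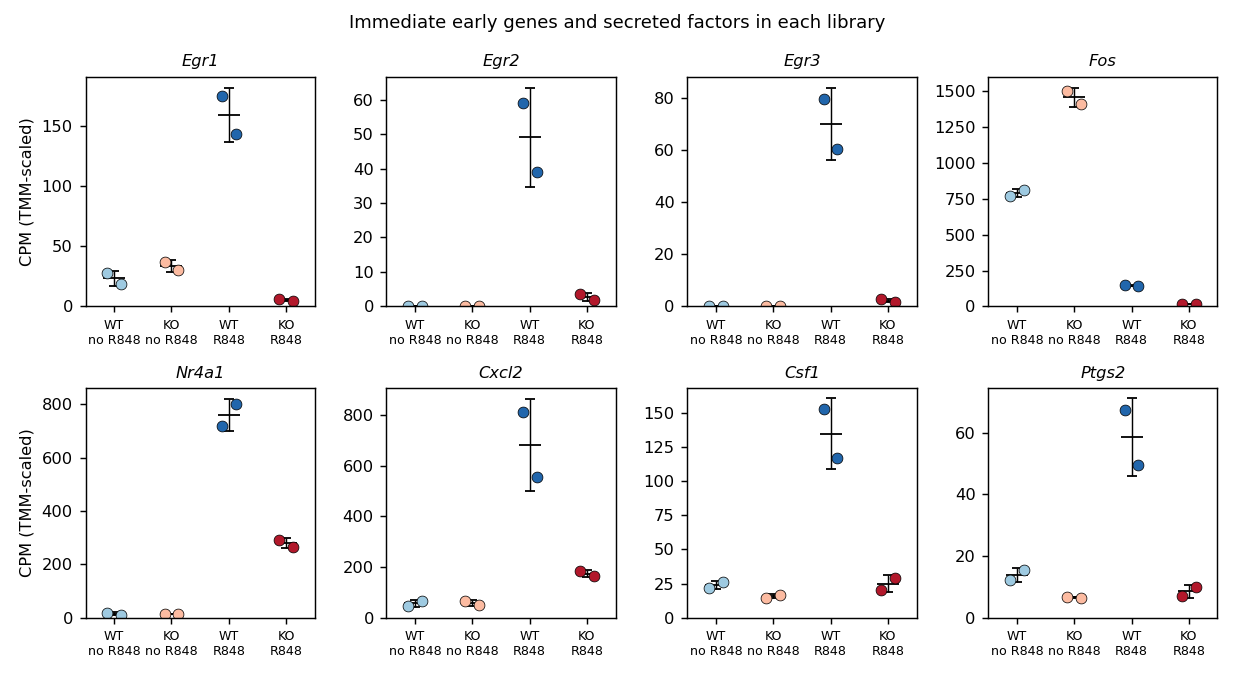
TMM-scaled CPM of 8 genes in each of the 8 libraries, by genotype and treatment, with the mean and SD of the 2 libraries of a group. After R848, both Padi4 KO libraries lie below both WT libraries for each gene shown, for Egr1 at 6.22 and 4.59 against 176 and 143 CPM and for Nr4a1 at 292 and 266 against 718 and 802 CPM.

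Serum response factor, CREB and EGR proteins bind promoters of immediate early genes, and 2 such promoters are shown because their genes were lower in Padi4 KO neutrophils and their windows hold such letters. Each window is the 250 bases before the transcription start in RefSeq (GRCm38.p6), written 5′ to 3′ on the strand of the gene, with matches to the EGR motif GCGNGGGCG, the CRE motif TGACGTCA and the CArG box in capitals. Zfp36 (chr7:28379229-28379478, minus strand) holds an EGR match at -105 to -97 and a CArG box, the site of serum response factor, at -58 to -49, counted from the start. This RefSeq start lies 1025 bases from the start of the gene in GENCODE. Btg2 (chr1:134079156-134079405, minus strand) holds a CRE match at -166 to -159 and an EGR match at -131 to -123.
Zfp36: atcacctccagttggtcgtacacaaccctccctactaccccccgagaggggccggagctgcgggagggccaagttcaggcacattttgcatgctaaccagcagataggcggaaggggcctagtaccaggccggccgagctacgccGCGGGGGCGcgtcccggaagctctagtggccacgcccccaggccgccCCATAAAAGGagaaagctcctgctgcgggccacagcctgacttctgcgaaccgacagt
Btg2: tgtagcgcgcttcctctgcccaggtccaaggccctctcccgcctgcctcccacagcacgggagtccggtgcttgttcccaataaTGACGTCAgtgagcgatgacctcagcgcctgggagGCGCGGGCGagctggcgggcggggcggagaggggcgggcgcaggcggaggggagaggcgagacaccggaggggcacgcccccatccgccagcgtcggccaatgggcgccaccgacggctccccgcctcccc
The EGR motif was present on either strand in 11 of the 24 members with a window, 45.8%, against 4.67% of all 27025 promoters and 8.52% of those of the genes tested. The 11 members with the motif included 6 lower genes (median log2 fold change -0.49) and the 13 without it 11 (median -0.76). The CArG box and the CRE motif were each in 2 of 24 windows, against 1.4% and 1.61% of all promoters, and the AP-1 motif TGANTCA was in 0 of 24 against 6.84%. A match is a description of letters and not a bound site.

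Of 27 members tested of the list of cytokines and TNF family genes outside the IL-1 family, 7 were lower (25.9%, against 7.84% of all genes tested) and none higher (median log2 fold change -0.19, 0 with library size alone). Csf1 (chr3:107741048-107760469, minus strand), the growth factor of monocytes and macrophages, had 153 and 117 CPM in WT and 20.4 and 29.4 CPM in Padi4 KO neutrophils (-2.42 ± 0.22). Osm, which encodes the IL-6 family cytokine oncostatin M, had 159 and 152 CPM in WT and 39.1 and 57.9 CPM in Padi4 KO (-1.68 ± 0.18). Tnf had 951 and 949 CPM in WT and 728 and 621 CPM in Padi4 KO (-0.49 ± 0.09). Without R848, Csf1 stood at 21.6 and 25.9 CPM in WT and 14.7 and 16.7 CPM in Padi4 KO neutrophils, so that the genotypes were further apart after R848. Il10, an anti-inflammatory cytokine gene, was also lower (235 and 169.9 CPM in WT, 123 and 100.1 CPM in Padi4 KO, -0.84 ± 0.15).

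Chemokine ligands did not move in 1 direction. Of 16 tested, 4 were lower (25%, against 7.84% of all genes tested) and 3 higher (18.8%, against 9.44%), and the median was 0. Cxcl2 (chr5:90903871-90905938, plus strand), a neutrophil attractant that acts through CXCR2, had 810.3 and 554 CPM in WT and 184 and 164 CPM in Padi4 KO neutrophils after R848, 3.89-fold lower (-1.96 ± 0.11, adjusted p = 8.89e-71). Without R848 the levels overlapped, at 47.9 and 65.6 CPM in WT and 67.8 and 49.3 CPM in Padi4 KO. Ccl3 (-0.70 ± 0.08), Cxcl10 (-1.05 ± 0.20), which is induced by interferons, and Ccl6 (-0.52 ± 0.12) were lower too. The 3 higher members were Ccl5 with 11 and 10 reads in WT and 82 and 48 in Padi4 KO (1.55 ± 0.31), Ccl9 (0.87 ± 0.21) and the platelet chemokine Pf4 (1.31 ± 0.54), and DESeq2 called none of the 3.

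The windows of Cxcl2 and Csf1 are shown because both genes fell by more than 2-fold and hold a match to the NF-kB motif, in capitals: Cxcl2 (chr5:90903649-90903898, plus strand) with 2 overlapping matches from -97 to -87 and Csf1 (chr3:107760470-107760719, minus strand) with 1 from -154 to -145.
Cxcl2: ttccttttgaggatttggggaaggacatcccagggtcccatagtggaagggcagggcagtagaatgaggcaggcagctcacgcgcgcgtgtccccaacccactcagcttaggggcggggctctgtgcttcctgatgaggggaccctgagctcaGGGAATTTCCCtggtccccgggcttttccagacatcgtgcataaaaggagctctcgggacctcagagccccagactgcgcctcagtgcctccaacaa
Csf1: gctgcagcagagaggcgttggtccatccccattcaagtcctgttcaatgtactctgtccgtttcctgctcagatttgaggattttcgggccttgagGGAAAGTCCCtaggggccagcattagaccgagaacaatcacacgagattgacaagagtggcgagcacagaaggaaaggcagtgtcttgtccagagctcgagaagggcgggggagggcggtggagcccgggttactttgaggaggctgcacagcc
Such a match was found in 53 of the 752 lower genes with a window, 7.05%, in 31 of 907 higher genes, 3.42%, and in 4.4% of the genes tested. In the list of NF-kB subunits and feedback genes it was in 8 of 24 windows, of which 5 were lower and 1 higher, and 5 of the 16 without it were lower.

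Of 24 IL-1 family and inflammasome genes, 10 were lower and none higher (median -0.23), with 7 to 11 lower over the alternatives and 1 higher with library size alone. The lower share was 41.7%, against 7.84% of all genes tested. Il1b (chr2:129364570-129371139, minus strand) was lower in Padi4 KO neutrophils after R848, at 3155 and 2853 CPM against 5695 and 4819 CPM in WT (-0.81 ± 0.07). Before stimulation it was the other way round, 286 and 255 CPM in Padi4 KO and 83.5 and 81.1 CPM in WT. The antisense gene Il1bos overlaps its exons, and the reads of both cannot be told apart without strand. Nlrp3, the sensor of the inflammasome that matures IL-1β, had 496 and 508 CPM in WT and 270.1 and 308 CPM in Padi4 KO (-0.80 ± 0.10). Inhibitors of IL-1 and IL-18 were lower too, the decoy receptor Il1r2 with 122 and 72.6 CPM in WT and 30.2 and 31.2 CPM in Padi4 KO (-1.64 ± 0.23), the receptor antagonist Il1rn (-0.50 ± 0.08) and Il18bp, which binds IL-18 (-1.27 ± 0.32).

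Receptor and adaptor genes of the Toll-like receptor pathway were lower in part. Of 28 Toll-like receptor and adaptor genes, 7 were lower and 1 higher (median -0.15, which became 0.065 with library size alone). The shares were 25% lower and 3.57% higher, against 7.84% and 9.44% of all genes tested. Cd14, a co-receptor of several TLRs, had 3096 and 2607 CPM in WT and 1409 and 1320 CPM in Padi4 KO neutrophils (-1.06 ± 0.07). Tlr2 had 1178 and 977 CPM in WT and 516 and 480.4 CPM in Padi4 KO (-1.11 ± 0.09). Both were higher in Padi4 KO neutrophils without R848, by 1.01 and 0.79 on the log2 scale. Tlr4 was lower at 23 and 20 reads in WT and 20 and 14 in the deeper Padi4 KO libraries (-1.40 ± 0.34). Irak2, a kinase of the MyD88 complex, had 541 and 453 CPM in WT and 259 and 276 CPM in Padi4 KO (-0.89 ± 0.11). Tlr7, the receptor of R848, did not pass the test, with 40.8 and 30.1 CPM in WT and 26.7 and 17.5 CPM in Padi4 KO (-0.66 ± 0.32). The higher member was Tlr1, with 5 and 7 reads in WT and 29 and 26 in Padi4 KO (1.12 ± 0.44), a call lost with any of the 4 libraries left out. Myd88 had 302 and 304 CPM in WT and 296 and 275 CPM in Padi4 KO (-0.09 ± 0.12).

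NF-kB subunit and feedback genes were lower in 13 of 29 cases and higher in 1 (median -0.25), and lower in 6 of 29 with library size alone. The shares were 44.8% lower and 3.45% higher, against 7.84% and 9.44% of all genes tested. The subunit gene Rel had 73.5 and 56.6 CPM in WT and 32.9 and 29.4 CPM in Padi4 KO (-1.05 ± 0.26). Nfkbid and Nfkbiz, which encode nuclear IkB proteins, were at -1.04 ± 0.14 and -0.58 ± 0.10, and Nfkb2 at -0.51 ± 0.09, with exons that overlap the opposite-strand gene Psd. Nfkbia, the cytoplasmic inhibitor and a direct NF-kB target, was lower by little (-0.20 ± 0.08). The single higher member was Tnip3 (9 and 5 reads in WT, 51 and 31 in Padi4 KO), a call that was lost without WT replicate 2, without Padi4 KO replicate 1 and in DESeq2.

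Of 33 genes of the p38 and JNK cascade, 11 were lower and none higher (median -0.18, which was 0 with library size alone, where 6 were lower and 3 higher). The lower share was 33.3%, against 7.84% of all genes tested. Dusp6 and Dusp5, whose phosphatases act on ERK, had the lowest values, with 276 and 184 CPM in WT against 77.3 and 66.1 CPM in Padi4 KO for Dusp6 (-1.66 ± 0.16) and 95.9 and 101 against 45.3 and 35.8 CPM for Dusp5 (-1.28 ± 0.22). Spag9, which encodes the scaffold JLP, had 165 and 157 CPM in WT and 77.3 and 79.9 CPM in Padi4 KO (-1.03 ± 0.17). The kinase genes Map2k4 (-0.54 ± 0.17) and Map2k3 (-0.45 ± 0.13) were lower. Of the other genes that the study takes up, Rnf11 was lower (-0.44 ± 0.13, adjusted p = 0.26 with library size alone and 0.000315 at the lowest over the alternatives) and Hbp1 did not pass (229 and 221 CPM in WT, 239 and 213 CPM in Padi4 KO, 0.01 ± 0.13).

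In the prostaglandin and leukotriene list 5 of 19 genes were lower and none higher (median -0.27), with 3 lower and a median of -0.053 with library size alone and 7 lower at most. The lower share was 26.3%, against 7.84% of all genes tested. Ptgs2, the inducible cyclooxygenase gene, had 67.4 and 49.5 CPM in WT and 7.11 and 10.1 CPM in Padi4 KO neutrophils after R848 (-2.73 ± 0.35), and in Padi4 KO it stood at 6.78 and 6.53 CPM without stimulation. The change of the Ptgs2 genotype difference between the states did not pass its test. The constitutive cyclooxygenase gene Ptgs1 (-1.42 ± 0.42) and Lta4h, which makes leukotriene B4 (516 and 513 CPM in WT and 300.3 and 319.7 CPM in Padi4 KO, -0.73 ± 0.10), were lower as well. Other genes among the 10 largest decreases were Nt5e, the ecto-5′-nucleotidase CD73 (110.2 and 120.3 CPM in WT, 22.2 and 21.1 CPM in Padi4 KO, -2.41 ± 0.24), and Thbs1, the matrix protein thrombospondin 1 (2682 and 1697 CPM in WT and 442 and 483 CPM in Padi4 KO, -2.24 ± 0.20, adjusted p = 7.12e-05). Sepn1 was at -2.05 ± 0.16. The exons of Thbs1 overlap those of the opposite-strand gene Gm29233.

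Type I interferon-stimulated genes, which encode antiviral proteins, were lower in 24 of 43 cases and higher in none (median -0.44), with 12 lower under library size alone, 13 in DESeq2 and 26 at most. All but 2 of the 43, Gbp3 and Gbp7, had a negative log2 fold change. Rsad2, which encodes viperin, had 535 and 386 CPM in WT and 228 and 244 CPM in Padi4 KO neutrophils (-0.95 ± 0.11). Eif2ak2, the RNA-activated kinase PKR, had 81.6 and 97.3 CPM in WT and 35.5 and 43.2 CPM in Padi4 KO (-1.19 ± 0.22). Isg15 (-0.80 ± 0.19) and Ifit1 (-0.88 ± 0.22) were lower by less. Without R848, 4 of the 43 were lower and 1 higher, and the difference between the states passed for 4 members, all further down after R848. Over all genes tested, 14.4% were lower and 9.54% higher without R848, and 1.26% passed further down after it.

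Rsad2 and Isg15 are shown as examples of windows with the ISRE motif (GAAA, any 2 bases, GAAA) in capitals, Rsad2 (chr12:26456453-26456702, minus strand) with 1 match on the other strand at -120 to -111 and Isg15 (chr4:156200819-156201068, minus strand) with 3 overlapping matches from -78 to -57.
Rsad2: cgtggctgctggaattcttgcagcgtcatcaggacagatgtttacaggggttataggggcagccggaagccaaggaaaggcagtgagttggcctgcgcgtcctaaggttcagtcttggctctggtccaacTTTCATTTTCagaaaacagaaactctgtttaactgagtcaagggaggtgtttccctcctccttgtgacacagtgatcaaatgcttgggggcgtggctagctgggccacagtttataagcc
Isg15: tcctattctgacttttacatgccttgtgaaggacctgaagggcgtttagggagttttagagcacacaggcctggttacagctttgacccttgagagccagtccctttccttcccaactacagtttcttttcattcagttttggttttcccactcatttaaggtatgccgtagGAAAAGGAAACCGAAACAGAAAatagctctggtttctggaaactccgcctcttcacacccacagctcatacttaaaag
The motif was in 17 of the 32 members with a window, 53.1%, against 3.05% of all promoters. The 17 had 7 lower genes (median -0.4375) and the 15 without it had 10 (median -0.4448).

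Genes of the neutrophil granules were mostly lower in Padi4 KO neutrophils after R848. Of 33 specific and gelatinase granule genes, 27 were lower and none higher (median -0.51), and 30 were lower in unstimulated neutrophils. Their sum was 185582 and 172893 CPM of the library total in WT and 139887 and 139078 CPM in Padi4 KO neutrophils. Ltf, which encodes lactoferrin, had 10665 and 9867 CPM in WT and 5995 and 6100.4 CPM in Padi4 KO (-0.76 ± 0.06). Ngp had 28598 and 27891 CPM in WT and 17398 and 18120.3 CPM in Padi4 KO (-0.67 ± 0.06). The chitinase-like gene Chil3 had 8563 and 7349 CPM in WT and 3583 and 3644 CPM in Padi4 KO (-1.14 ± 0.06). Chil3 was also lower without R848 (-1.09 ± 0.06). Of 14 azurophil granule genes, 8 were lower and 1 higher (median -1.08), and without R848 6 were lower and 1 higher. Mpo, encoding myeloperoxidase, had 122 and 142 CPM in WT and 41.8 and 55.1 CPM in Padi4 KO (-1.45 ± 0.19). The proteases Elane and Prtn3 were at -1.19 ± 0.20 and -1.19 ± 0.20, and Srgn, the proteoglycan of the granules, at -1.25 ± 0.08. Without R848 Srgn did not pass the test (-0.16, adjusted p = 0.279). The single higher gene, the protease activator Ctsc, had 81.6 and 76.1 CPM in WT and 114 and 141 CPM in Padi4 KO (0.69 ± 0.18), a call lost without WT replicate 2 and without Padi4 KO replicate 2.

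Maturation, receptor and oxidase genes were lower in part. Of 26 neutrophil maturation and surface genes, a list that includes Padi4 itself, 16 were lower and 1 higher (median -0.38), and 11 were lower with library size alone. Trem1, an amplifier of TLR responses, had 1016 and 786 CPM in WT and 335 and 349 CPM in Padi4 KO neutrophils (-1.39 ± 0.09). Hdc, which makes histamine, had 1929 and 1832 CPM in WT and 743 and 679.8 CPM in Padi4 KO (-1.40 ± 0.08). Without R848, Trem1 had 243 and 217 CPM in WT and 249 and 199 CPM in Padi4 KO, levels that overlapped. Among the 20 chemoattractant receptors, 7 were lower and 3 higher (median 0.02), against 3 lower and 5 higher with library size alone (median 0.195), and the median was -0.029 with relative log expression factors. The shares were 35% lower and 15% higher, against 7.84% and 9.44% of all genes tested. Fpr1, a receptor of formyl peptides, had 4849.7 and 4297 CPM in WT and 3096 and 2990 CPM in Padi4 KO (-0.59 ± 0.07). Ccr1 was at -0.76 ± 0.15 and Ccrl2 at -0.72 ± 0.15. The 3 higher receptor genes were those of monocytes and macrophages, Ccr2 and C3ar1 among them, and 1 of the 3 passed without WT replicate 1, WT replicate 2 or Padi4 KO replicate 1. The receptors Cxcr2 (0.04 ± 0.08) and Csf3r (0.12 ± 0.07) did not pass. Of the 10 NADPH oxidase genes, 6 were lower, 3 with library size alone (median -0.26), with Cybb, the catalytic subunit gp91phox, at -0.42 ± 0.07 and Ncf4 at -0.23 ± 0.08.

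For the 34 adhesion and integrin genes the count depended on the scaling and on single libraries: 9 were lower and 2 higher (median -0.22), against 18 lower with relative log expression factors, 4 with library size alone, 15 without WT replicate 1 and 14 without Padi4 KO replicate 2. The shares in the main fit were 26.5% lower and 5.88% higher, against 7.84% and 9.44% of all genes tested. Plaur, the urokinase receptor, had 359 and 326 CPM in WT and 181 and 172 CPM in Padi4 KO (-0.95 ± 0.12). The tetraspanin gene Cd9 was at -0.72 ± 0.08 and the hyaluronan receptor gene Cd44 at -0.50 ± 0.08. Itgam (-0.30 ± 0.07), the alpha subunit of Mac-1, was lower, Itgb2, its beta subunit, did not pass (2709 and 2789 CPM in WT, 2440.3 and 2499 CPM in Padi4 KO, -0.15 ± 0.07), and neither did Itgal of LFA-1 (0.09 ± 0.07). The 2 higher members were Itga4, an integrin subunit of immature and mononuclear cells (0.89 ± 0.28, not passing without WT replicate 1 or 2 and in DESeq2), and Selplg, the ligand of P-selectin (0.25 ± 0.09), which was also the higher member of the maturation list and lost that call with any of the 4 libraries left out. Without R848, 22 of the 34 were lower and 1 higher. Erythroid transcripts were higher in the Padi4 KO libraries that showed these decreases. Their part in the lower values of granule, surface and inflammatory genes was not tested, and less RNA of a gene per cell cannot be told apart from fewer cells of a type in bulk RNA.

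Erythroid genes had the highest median of the 28 lists. Of 31 erythroid membrane and transcription factor genes tested, 26 were higher, each by more than 2-fold, and 1 was lower, with 24 to 26 higher over the alternatives. The median log2 fold change was 5.99 as fitted, and 4.09 with the 12 genes without a WT read set at their bound of 3 reads over the WT libraries. Klf1 (chr8:84901928-84905291, plus strand), the master transcription factor of erythroid genes, had no read in WT and 65 and 73 reads in Padi4 KO neutrophils, at least 21.9-fold higher. Gata1 had no read in WT and 44 and 42, at least 13.7-fold higher. The carbonic anhydrase gene Car1 (chr3:14766216-14808368, minus strand) had no read in WT and 90 and 74 in Padi4 KO (at least 26.0-fold). Car2 had 8 and 6 reads in WT and 428 and 421 in Padi4 KO, 28.6-fold higher. Slc4a1, the anion exchanger band 3 of red cells, had 2 and 5 reads in WT and 535 and 544 in Padi4 KO (6.17 ± 0.24, adjusted p = 2.07e-136). Every Padi4 KO library exceeded every WT library for these genes. With 1 WT read, the ratio of Padi4 KO over WT was 125 (95% counting interval 22.3 to 4968) for Ermap. It was 19.5 (95% counting interval 3.32 to 790.2) for the erythropoietin receptor gene Epor, with 0 and 1 reads in WT and 24 and 17 in Padi4 KO. Aqp1, the water channel, had 4 and 0 reads in WT and 370 and 342 in Padi4 KO (6.35 ± 0.30). All its WT reads came from replicate 1, and without WT replicate 2 the value was 5.196. Without WT replicate 1, where no WT read remains, the fitted value was 11.1 and is no bound. The transferrin receptor gene Tfrc, which other dividing cells also use, had 22 and 8 reads in WT and 288 and 273 in Padi4 KO (3.15 ± 0.21). Nfe2, which neutrophils also express, was the lower member (-0.33 ± 0.10).

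All 12 genes of heme synthesis and its mitochondrial transport were higher (median 3.58; 9 in DESeq2), 10 of them by more than 2-fold. Cpox, whose exons overlap the opposite-strand gene Gpr15, had 2 and 4 reads in WT and 162 and 185 in Padi4 KO (26.9-fold), and Alad had no read in WT and 58 and 57 in Padi4 KO (at least 18.3-fold). Fech, which inserts iron into heme, had 0 and 3 reads in WT and 91 and 79 in Padi4 KO, a ratio of 27.0 (95% counting interval 9.08 to 132). Its fitted log2 fold change of 4.68 was 3.68 without WT replicate 1 and 9.04 without WT replicate 2, where no WT read remains. Alas2, the erythroid first enzyme of the pathway, had 3 and 1 reads in WT and 51 and 44 in Padi4 KO (3.45 ± 0.51). Mitoferrin 1, Slc25a37, which is not limited to erythroid cells, was higher by little (312 and 251 CPM in WT and 387 and 350 CPM in Padi4 KO, 0.40 ± 0.11). Globin genes could not be followed here, since Hba-a1 and Hbb-bt had no reads.

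The erythroid difference was present without R848, and for some members it was larger after it. Klf1 had 6.19 and 6.90 CPM in WT and 63.3 and 63.8 CPM in Padi4 KO without stimulation, and 0 CPM in WT and 57.7 and 67.1 CPM in Padi4 KO after R848. Its change with R848, 5.47 ± 1.78 as fitted, did not pass with any of the 4 libraries left out (adjusted p 0.121 to 0.368), with thinned counts (0.258) or with scaling without the erythroid lists (0.111). Slc4a1 went from 12.4 and 12.1 to 4.08 and 8.85 CPM in WT and from 158 and 147 to 475 and 499.7 CPM in Padi4 KO neutrophils. Of the 12 heme genes, 8 were higher and 1 lower without R848. The heme enzyme gene Ppox was lower in Padi4 KO without R848 (-0.51) and higher after it (0.99). Over all genes tested, the difference of the differences passed upward for 3.44%. It passed for 10 of the 31 erythroid and 8 of the 12 heme genes, all towards a higher value after R848. For Slc4a1 it was 2.55 ± 0.62, and 1.87 without WT replicate 1 (adjusted p = 0.183, against 0.00399 to 0.0905 under the other alternatives). For Car2 it was 1.71 ± 0.41, and 1.19 without WT replicate 2 (adjusted p = 0.258, against 0.00256 to 0.0698 under the others). Both calls thus rested on single WT libraries of few reads.

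**Figure D3:**
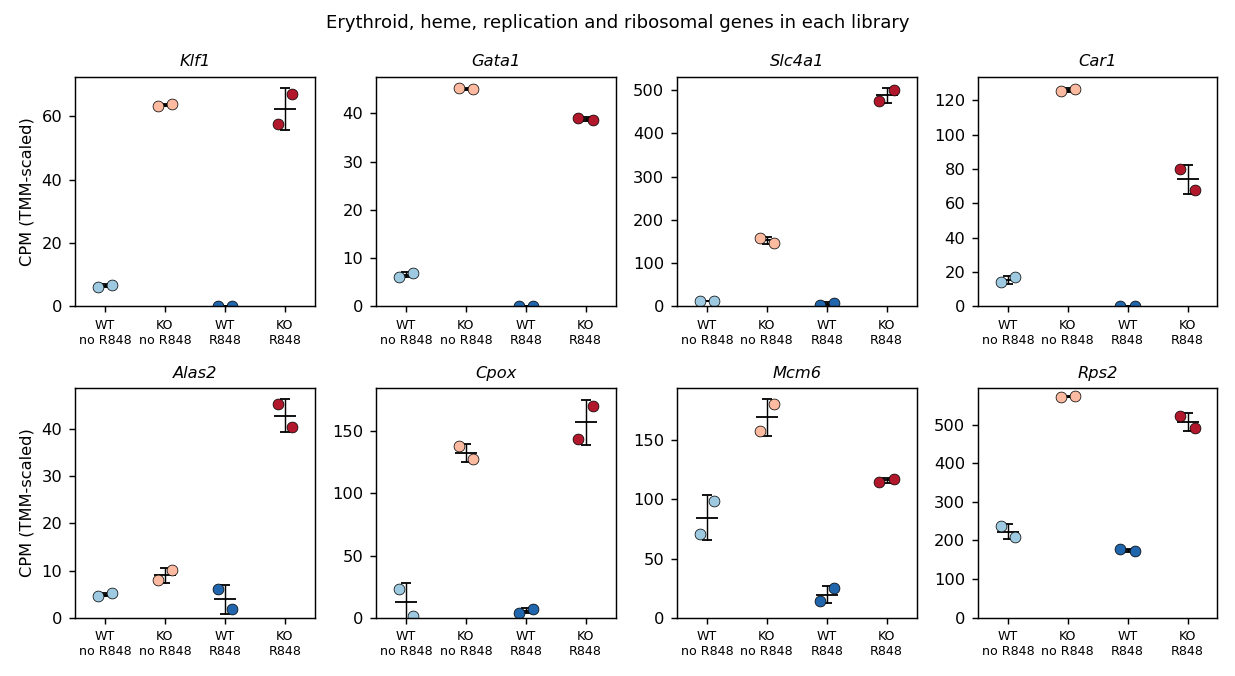
TMM-scaled CPM of 8 genes in each of the 8 libraries, by genotype and treatment, with the mean and SD of the 2 libraries of a group. After R848 both Padi4 KO libraries lie above both WT libraries in each panel, for Klf1 at 57.7 and 67.1 CPM against 0 and for Rps2 at 523 and 491 against 178 and 172 CPM.

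The windows of Alas2 and Epor are shown as erythroid promoters with a GATA motif, AGATAA or its reverse complement, in capitals, Alas2 (chrX:150547167-150547416, plus strand) at -86 to -81 and Epor (chr9:21963577-21963826, minus strand) at -54 to -49.
Alas2: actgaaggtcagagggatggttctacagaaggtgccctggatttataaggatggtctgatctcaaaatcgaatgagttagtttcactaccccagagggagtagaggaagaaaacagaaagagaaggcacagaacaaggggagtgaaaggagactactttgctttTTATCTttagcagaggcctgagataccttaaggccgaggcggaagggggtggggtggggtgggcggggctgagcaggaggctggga
Epor: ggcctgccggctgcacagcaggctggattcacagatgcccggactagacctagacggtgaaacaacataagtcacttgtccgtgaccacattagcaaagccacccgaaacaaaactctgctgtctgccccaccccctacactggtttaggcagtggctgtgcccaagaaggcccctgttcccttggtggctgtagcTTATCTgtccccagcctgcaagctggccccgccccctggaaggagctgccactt
The motif was in 6 of the 21 erythroid genes with a window, 28.6%, in 1 of 9 heme genes, in 10.2% of all promoters and in 5.88% of those of the genes tested. All 6 erythroid genes with the motif were higher, and 12 of the 15 without it.

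Genes of growth and division were higher together with the erythroid genes. Of 37 cell cycle and mitosis genes, 28 were higher and none lower (median 1.08), 18 by more than 2-fold, with 16 in DESeq2 and 33 with library size alone. Among them were the helicase subunit genes Mcm6, with 14.3 and 24.8 CPM in WT and 115 and 118 CPM in Padi4 KO (2.54 ± 0.26), and Mcm2 (2.73 ± 0.29), and the ribonucleotide reductase genes Rrm1 (53.1 and 76.1 CPM in WT and 233 and 220.5 CPM in Padi4 KO, 1.79 ± 0.17) and Rrm2 (1.86 ± 0.18). The proliferation marker Mki67 did not pass (155 and 117 CPM in WT and 150.1 and 181 CPM in Padi4 KO, 0.29 ± 0.15) and Top2a was higher by little (0.36 ± 0.14). Of 77 cytosolic ribosomal protein genes, 73 were higher and none lower (median 0.82; 55 in DESeq2, 75 with library size alone), and their sum was 9505 and 10255 CPM of the library total in WT and 20465 and 19499 CPM in Padi4 KO neutrophils. Rps2 had 178 and 172 CPM in WT and 523 and 491 CPM in Padi4 KO (1.54 ± 0.12), Rplp1 was at 1.46 ± 0.13 and Rpsa at 1.14 ± 0.11. Many of these genes have near-identical pseudogenes that can share their reads, and their values are uncertain to that extent. Without R848, 64 of the 77 were higher and 1 was lower.

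Metabolic lists were less uniform. Of 74 oxidative phosphorylation genes, 25 were higher and 1 lower (median 0.51), but 8 were higher without WT replicate 1, 13 without either Padi4 KO library, 14 without WT replicate 2, 6 in DESeq2 and 39 with library size alone. Atp5a1, an ATP synthase subunit, had 200 and 202 CPM in WT and 389 and 355 CPM in Padi4 KO (0.89 ± 0.12), and Atp5b was at 0.46 ± 0.10. The lower member was Cycs, the cytochrome c gene (-0.59 ± 0.24), which did not pass without WT replicate 1, WT replicate 2 or Padi4 KO replicate 2 and in DESeq2. Of 23 glycolysis genes, 7 were lower and 2, Pfkm and Pdk1, higher (median -0.20, which became 0.019 with library size alone, where 1 was lower and 4 higher). The shares were 30.4% lower and 8.7% higher, against 7.84% and 9.44% of all genes tested. The higher count was 1 without WT replicate 1, without WT replicate 2 and in DESeq2, and thinned counts gave 11 lower. The lactate transporter gene Slc16a3 had 1141 and 934 CPM in WT and 572 and 563 CPM in Padi4 KO (-0.87 ± 0.09), and Hif1a was at -0.46 ± 0.11. Of 30 Atf4 and ER stress genes, 3 were lower and 4 higher, 10% and 13.3% against 7.84% and 9.44% of all genes tested. The median, 0.061, turned negative with relative log expression factors (-0.037), thinned counts (-0.071) and DESeq2 (-0.024), and with library size alone it was 0.273 and 7 members were higher. The lower members were the cystine transporter subunits Slc7a11 (2090.1 and 1494 CPM in WT, 880.4 and 895 CPM in Padi4 KO, -1.01 ± 0.08) and Slc3a2 (-0.75 ± 0.10) and Atf4 itself (-0.66 ± 0.11). The higher members were Asns, for asparagine synthetase (1.74 ± 0.24), the one-carbon metabolism genes Mthfd2 (1.10 ± 0.28) and Shmt2, with 3 and 3 reads in WT and 75 and 60 in Padi4 KO (3.39 ± 0.41), and Trib3, with no read in WT and 25 and 23 in Padi4 KO, at least 7.62-fold.

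Other cell types were checked by their own lists. Of 34 monocyte and macrophage genes, 9 were higher and 3 lower (median 0.18; 4 higher without WT replicate 2, 3 in DESeq2; 5 lower without WT replicate 1 or 2, 7 with relative log expression factors), with 24 and 18 reads of Fn1 in WT and 148 and 135 in Padi4 KO (1.68 ± 0.21), Ccr2 at 0.88 ± 0.29, and Adgre1, the macrophage antigen F4/80, lower at -0.44 ± 0.07. The shares were 26.5% higher and 8.82% lower, against 9.44% and 7.84% of all genes tested. The summed level of the list was 7957 to 8079 CPM of the library total in WT and 7908 to 8112 CPM in Padi4 KO. These sums are without TMM scaling. With it, the WT sums would stand higher against those of Padi4 KO, since the TMM factors were lower in WT. Of 15 eosinophil, basophil and mast cell genes, 3 were lower (Siglecf, Hdc and Kit), and 1, Hdc, without WT replicate 1, WT replicate 2 or Padi4 KO replicate 2, and the defining markers Prg2, Epx, Mcpt8 and Cpa3 had 0 to 18 reads. Of 13 lymphocyte genes only the plasma cell gene Jchain passed (46.9 and 54.9 CPM in WT and 106 and 107 CPM in Padi4 KO, 1.05 ± 0.21), and Cd3e had no reads. The higher share of that list was 7.69%, against 9.44% of all genes tested. Of the 11 MHC class II genes, 0 passed with edgeR, 0 with DESeq2 and 0 at an unadjusted p below 0.05, 3 of 18 platelet genes, Pf4, Gp1ba and Vwf, were higher (16.7%, against 9.44% of all genes tested, and none without WT replicate 1 or 2), and of 17 stromal and endothelial genes 2 were lower (11.8%, against 7.84% of all genes tested), Spp1 (129 and 83.2 CPM in WT and 28.4 and 26.6 CPM in Padi4 KO, -1.92 ± 0.23) and Vcam1 (-1.31 ± 0.20), and 2 higher, Eng and Lpl, with 0 or 1 higher when any of the 4 libraries was left out and 0 in DESeq2. At an unadjusted p below 0.05, the lists with no higher member held 1 (IL-1 family), 1 (other cytokines), 2 (p38 and JNK cascade) and otherwise 0 higher genes, the lists with no lower member held 0 lower genes, and DESeq2 called 0 in the same places.

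**Figure D4:**
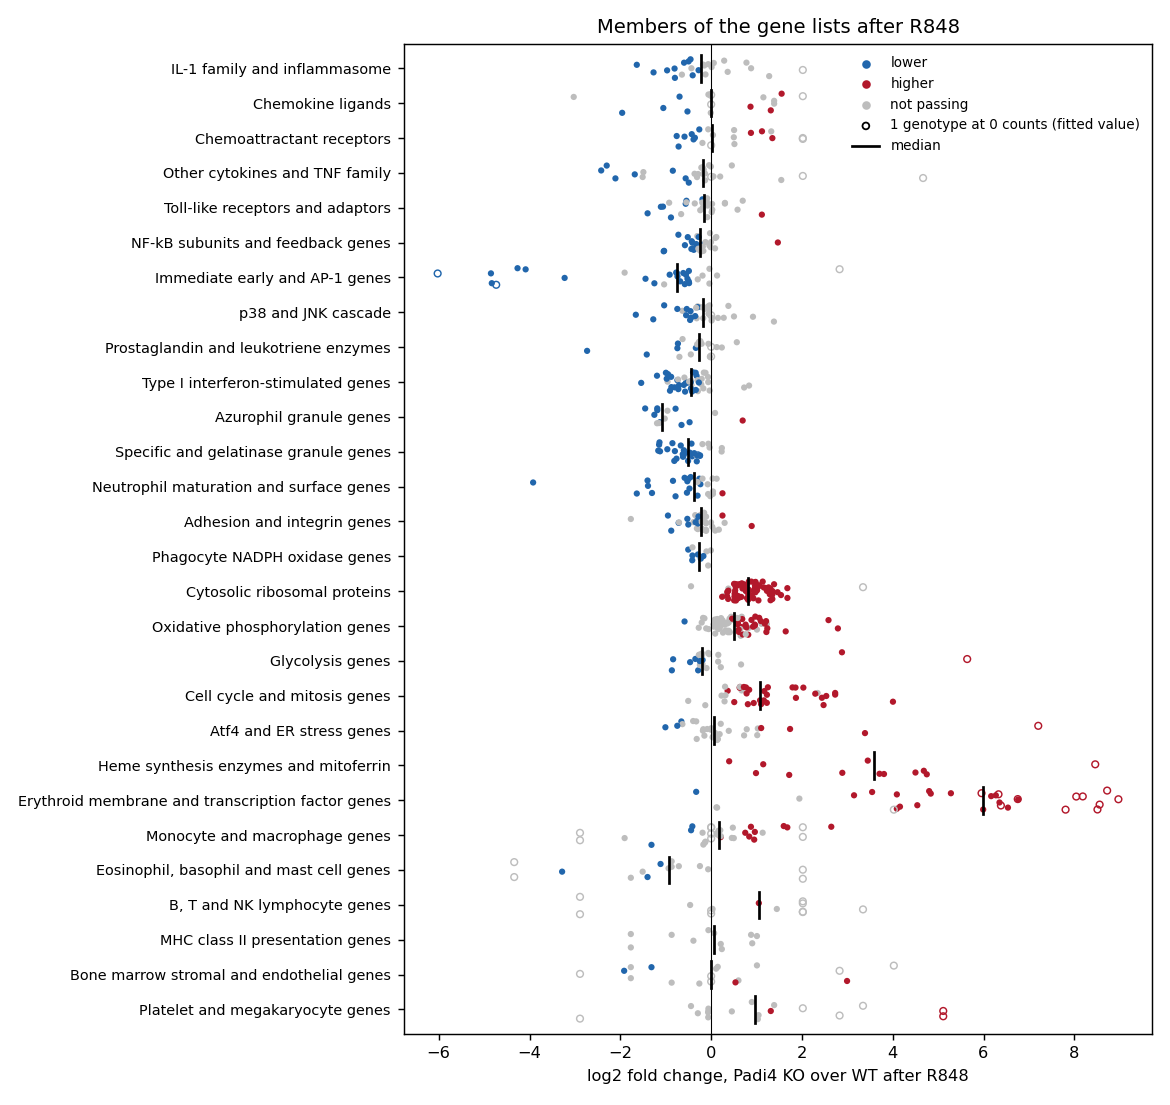
Log2 fold change of Padi4 KO over WT after R848 for the tested members of the 28 lists, with the median of each list as a bar, blue for lower, red for higher and grey for genes that did not pass. Immediate early genes (median -0.74) and granule genes (-0.51 and -1.08) lie left of 0, ribosomal (0.82), cell cycle (1.08), heme (3.58) and erythroid genes (5.99 as fitted) right of it.

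The same contrast without stimulation shows which differences were also present without R848. It gave 1767 lower genes, 14.4% of those tested, and 1169 higher genes, 9.54%. Of the 961 genes lower after R848, 513 were also lower without stimulation, 53.4% of these and 29.0% of the 1767, 24 were higher and 424 did not pass. Of the 1157 higher genes, 590 were also higher without stimulation, 51.0% of these and 50.5% of the 1169, 18 were lower and 549 did not pass. The change of the genotype difference between the 2 states was tested directly. If the unstimulated libraries were taken at 0 h, this change holds 6 h of culture as well as R848, and they cannot be told apart. Over all genes, it was further down after R848 in 154 genes (1.26%) and further up in 421 (3.44%). It passed for 126 of the 961 lower genes, in 106 of them towards a lower value after R848, and for 147 of the 1157 higher genes, in 140 of them towards a higher value. The 126 became 209 with scaling without the erythroid lists, 215 with thinned counts and 67 in DESeq2. The 147 became 77 with relative log expression factors, 67 with scaling without the erythroid lists, 45 with thinned counts and 9 in DESeq2. Both counts thus moved with the processing, and the 147 also fell with any of the 4 libraries left out.

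The 24 genes that were higher in Padi4 KO neutrophils without R848 and lower after it all passed the test of the difference, and 20 to 23 of them kept both calls with 1 library left out, 15 with library size alone and 13 in DESeq2. As they were chosen by calls of opposite sign, passing the test of the difference was nearly fixed in advance. The 24 included AP-1 genes (Fos, Fosb, Jun, Junb), receptors (Cd14, Tlr2, Gpr35), cytokines (Il1b, Osm) and the transcription factor genes Cebpb and Ets2. Irg1, whose enzyme makes itaconate, had 6.19 and 6.90 CPM in WT and 39.6 and 37.0 CPM in Padi4 KO neutrophils without R848, and 3352 and 2454 CPM in WT and 1431 and 1391 CPM in Padi4 KO after it, a change of the log2 difference of -3.55 ± 0.37. For Il1b this change was -2.51 ± 0.15, for Fos -4.11 ± 0.24, for Osm -2.27 ± 0.23 and for Cd14 -2.07 ± 0.35. Other genes started level and separated after R848, Cxcl2 with a change of -1.97 ± 0.24 and Nt5e with -2.40 ± 0.37. The specific granule genes Ltf (-0.20 ± 0.09), Ngp (-0.03 ± 0.08) and Chil3 (-0.04 ± 0.09) did not pass the test of the difference and were lower in both states. Of the 33 specific and gelatinase granule genes, 1 passed the test of the difference downward and 4 upward. Of the 14 azurophil granule genes, 4 passed it, all downward, among them Srgn (-1.09 ± 0.13) and Mpo (-0.60 ± 0.21).

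**Figure D5:**
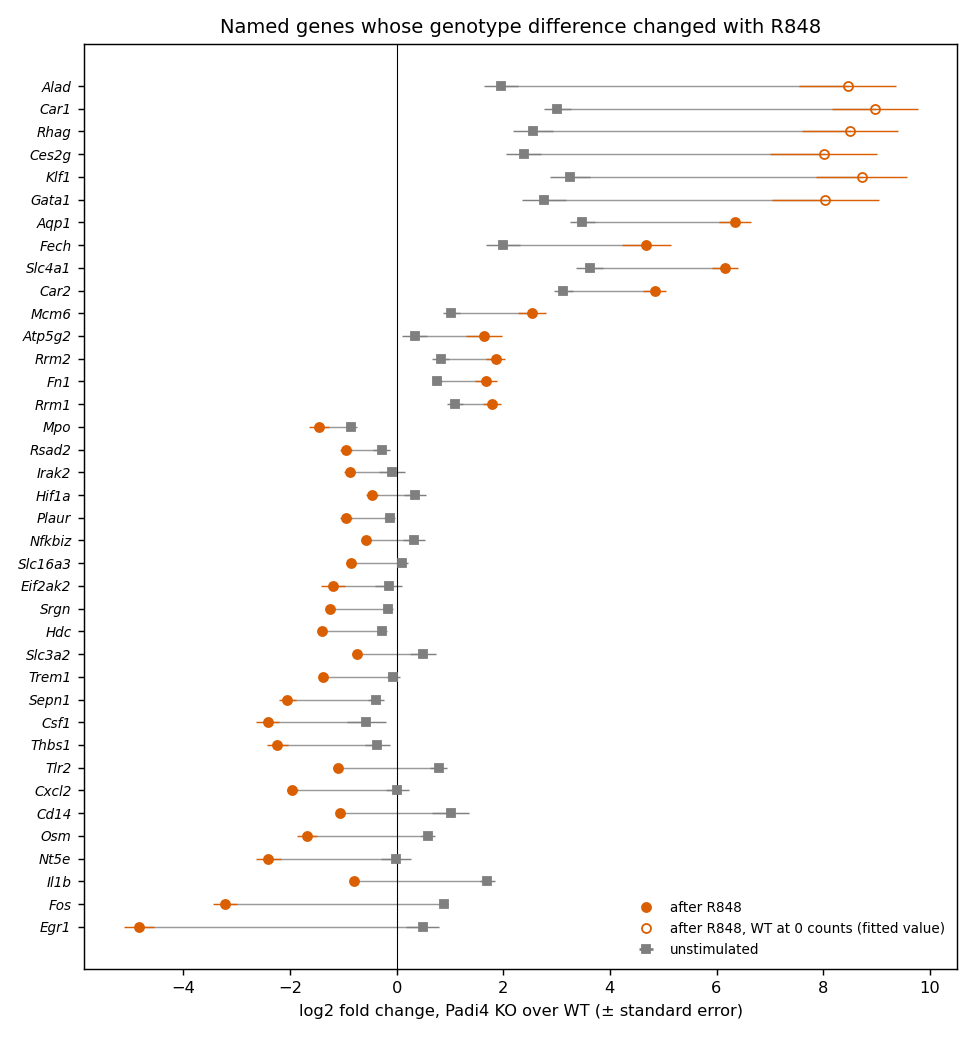
Log2 fold change of Padi4 KO over WT with its SE, without stimulation (squares) and after R848 (circles, open where WT had no read), for the 38 named genes whose genotype difference changed with R848. For 23 genes the circle lies left of the square, Egr1 going from 0.49 to -4.83, and for 15 right of it, Slc4a1 going from 3.62 to 6.17.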

How the data were processed

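RNA of magnetically isolated bone marrow neutrophils was sequenced in 8 libraries, 2 for each of WT and Padi4 KO, unstimulated or with R848. Per the submitters' processing notes, the authors used FastQC 0.11.7, cutadapt 1.16, STAR 2.5.3a and HTSeq 0.6.1p1 with the mm10 genome. The deposited files hold raw counts of reads per gene without normalization. Which annotation was counted, and whether by strand, is not given in the sources used here. Rows without a gene were left out, and 88.6% to 89.4% of the R848 reads were on genes.

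Genes with at least 1 count in at least 2 libraries entered edgeR 4.0.16 (R 4.3.3), with TMM factors, 1 mean per group over all 8 libraries, robust quasi-likelihood F-tests and Benjamini-Hochberg adjustment at 0.1. Contrasts were Padi4 KO minus WT after R848, the same without stimulation, and their difference. SE is the log2 fold change divided by the root of F. A single-gene exact permutation test of 2 against 2 libraries cannot go below p = 0.333. A gene with no WT read got a bound from 3 counts over both WT libraries, and one with 1 to 3 counts an exact 95% interval.

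Named genes were Padi4, the 10 largest decreases and 10 largest increases among called genes with a mean of at least 10 counts after R848, the 3 such genes with the smallest p in each list, and Spag9, Ptgs2, Rnf11 and Hbp1, which the study takes up, without any gene not reported here; other members of the lists are named as examples chosen after their values were seen. The comparison and the 28 lists were chosen with earlier results of these data known. Chi-square per degree of freedom between duplicates was 1.67 for the WT R848 pair and 1.05 to 1.16 for the other pairs, and duplicates were kept as 2 samples. Alternatives were RLE factors, library size alone, TMM without erythroid genes, other filters, DESeq2 1.42.0, the R848 libraries alone, a replicate block, thinning and each library left out. Promoter windows came from RefSeq (GRCm38.p6), positions and overlaps from GENCODE on GRCm38, and 70 of the 91 named genes had a window. For 6 of the 8 windows shown, the first transcribed bases matched a GENCODE transcript of the gene.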

Additional observations from a re-analysis of the deposited data

Results flagged for a closer look

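For 38 of the 91 named genes the genotype difference changed between the unstimulated and R848 states, by an edgeR test of the difference between the 2 genotype contrasts. The values below are that change on the log2 scale, Padi4 KO minus WT after R848 minus the same without stimulation. For 23 genes the change was downward. Among immediate early, cytokine and surface enzyme genes it was -5.32 for Egr1, -4.11 for Fos, -2.51 for Il1b, -2.40 for Nt5e, -2.27 for Osm, -1.97 for Cxcl2, -1.88 for Thbs1, -1.85 for Csf1 and -1.66 for Sepn1. Among receptors and signalling genes it was -2.07 for Cd14, -1.90 for Tlr2, -1.33 for Trem1, -0.90 for Nfkbiz, -0.82 for Plaur and -0.79 for Irak2. Among the others it was -1.23 for Slc3a2, -1.13 for Hdc, -1.09 for Srgn, -1.04 for Eif2ak2, -0.97 for Slc16a3, -0.81 for Hif1a, -0.67 for Rsad2 and -0.60 for Mpo.

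For 15 genes the change was upward. It was 6.50 for Alad, 5.96 for Car1, 5.95 for Rhag, 5.63 for Ces2g, 5.47 for Klf1 and 5.28 for Gata1, whose WT libraries had no read after R848, so that these fitted values depend on the prior count and are no bound. It was 2.87 for Aqp1, 2.69 for Fech, 2.55 for Slc4a1, 1.71 for Car2, 1.51 for Mcm6, 1.31 for Atp5g2, 1.03 for Rrm2, 0.92 for Fn1 and 0.70 for Rrm1. With 1 library left out the test no longer passed for up to 12 of the 38 genes, the most without WT replicate 1. Of the 15 upward changes, 14 were lost with at least 1 library left out, all but that of Alad, against 1 of the 23 downward changes. Without WT replicate 1 the change was 0.52 for Atp5g2 (adjusted p = 0.812) and 0.21 for Rrm1 (adjusted p = 0.898). In DESeq2 the call was kept for 20 of the 38, lost for 6 and not given for the other 12.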

How the results depend on the processing

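Against 961 lower genes, library size alone gave 417 and DESeq2 621, and leaving out a library gave 1027 to 1119. Against 1157 higher genes, library size alone gave 1869, DESeq2 387, thinned counts 711 and leaving out a library 648 to 786. Genes more than 2-fold lower (151) numbered 83 with library size alone, 265 with thinned counts and 197 to 254 with a library left out, and those more than 2-fold higher (858) 310 with DESeq2, 565 with thinned counts and 520 to 626 with a library left out. Lower genes whose difference changed with R848 (126) numbered 209 with scaling without the erythroid lists, 67 with DESeq2, 215 with thinned counts and 133 to 261 with a library left out; higher ones (147) numbered 77 with RLE factors, 67 with scaling without the erythroid lists, 9 with DESeq2, 45 with thinned counts, 85 at a false discovery rate of 0.05 and 30 to 52 with a library left out. Replicate numbers did not pair the samples (correlation of deviations 0.0143), and the replicate block gave 953, 1129, 144, 834, 130 and 143 for the same 6 counts, with 97.6% of the calls kept. DESeq2 kept 1000 of 2118 calls and gave no adjusted p for 3564 genes. Library size alone moved the median of all genes with at least 10 counts by 0.215, thinning by -0.164 and leaving out WT replicate 1 by -0.13. Hbp1, which did not pass, turned to -0.0892 with RLE factors, -0.0877 with scaling without the erythroid lists, -0.0901 in DESeq2, -0.231 with thinned counts and -0.185 to -0.0054 with a library left out. Of the 91 named genes, 86 to 91 kept direction and call under each alternative; Pla2g7, Hif1a, Pkm and Rnf11 lost theirs with library size alone, and Kit, Lpl and Pf4 under several alternatives. At 610117 to 1177972 reads per library, genes with a few reads carry wide errors, and the cause of these changes was not tested.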

Other observations

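The following groups were chosen after their values were seen and carry no test of the group. Of 20 cytosolic aminoacyl-tRNA synthetase genes, whose enzymes charge tRNAs for translation, 16 were higher in Padi4 KO neutrophils after R848 and 0 lower (median log2 fold change 1.28; 10 higher in DESeq2, 17 at most; 12 higher and 1 lower without stimulation). After R848, 9.44% of all genes tested were higher and 7.84% lower. Vars had 9 and 14 reads in WT and 110 and 164 in Padi4 KO (5.65-fold), and Aars had 16 and 18 in WT and 135 and 122 in Padi4 KO (1.84 ± 0.23). Dars (-0.08 ± 0.25), Rars (-0.20 ± 0.29), Nars (0.49 ± 0.21) and Wars (0.24 ± 0.40) did not pass. Erythroid, ribosomal and replication genes were higher in the same libraries, and their part in these values was not tested.

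Genes that handle extracellular nucleotides and adenosine were lower in 4 of 13 cases and higher in 1 (median -0.43), against 7.84% and 9.44% of all genes tested, with 2 lower under library size alone. The higher member was the nucleoside transporter gene Slc29a1, with 0 and 1 reads in WT and 46 and 40 in Padi4 KO, a ratio of 41.0 (95% counting interval 7.16 to 1637). Entpd1, the ectonucleotidase CD39, had 202 and 221 CPM in WT and 64.8 and 59.7 CPM in Padi4 KO neutrophils (-1.77 ± 0.16) and fell together with Nt5e, which acts on its product. Without R848 the log2 fold change of Entpd1 was -0.61 ± 0.15, and its change with R848 was -1.15 ± 0.22. The adenosine receptor gene Adora2b (-0.82 ± 0.31) and the nucleotide receptor gene P2ry2 (-0.43 ± 0.17) were lower too.

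Of 7 Schlafen genes tested, 5 were lower and 0 higher, against 7.84% and 9.44% of all genes tested, and 5 were lower under every alternative run. Without R848, 3 of the 7 were lower. Slfn4 had 3884 and 3005 CPM in WT and 1429 and 1514 CPM in Padi4 KO (-1.22 ± 0.07), and Slfn1 was at -0.72 ± 0.10 after R848 and -0.75 ± 0.10 without it. Among single genes, the pseudokinase gene Trib1 had 478 and 399.9 CPM in WT and 142 and 152 CPM in Padi4 KO (-1.57 ± 0.12), G0s2, an inhibitor of adipose triglyceride lipase, had 194 and 182 CPM in WT and 57.7 and 54.2 CPM in Padi4 KO (-1.74 ± 0.17), and the kinase gene Plk3 had 314 and 255 CPM in WT and 78.2 and 100.1 CPM in Padi4 KO (-1.67 ± 0.14). Vars, Aars, Entpd1, Slfn4, Trib1, G0s2 and Plk3 kept their direction and passed the test under every alternative run. In the other direction, 18 genes were lower in Padi4 KO neutrophils without R848 and higher after it. Selplg, the ligand of P-selectin (-0.24 and 0.25), and Grn, which encodes progranulin (-0.25 and 0.42), were among them. All 18 passed the test of the difference, which their choice by calls of opposite sign nearly fixed in advance. How many of the 18 kept both calls under the alternatives was not counted. Grn was near the threshold after R848 (adjusted p = 0.0784, edgeR). The call of Selplg after R848 was lost with any of the 4 R848 libraries left out.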
